A study of Mus musculus with 8 samples.

Results

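Oligodendrocytes that carried the transcript of Il33 were compared with oligodendrocytes in which no Il33 transcript was counted, within each experiment of a single-cell RNA sequencing study of the mouse dentate gyrus. The cells were selected on measured values. A barcode counted as an oligodendrocyte when it had over 500 genes and under 10% mitochondrial UMIs (unique molecular identifiers, each standing for 1 captured RNA molecule), at least 3 of the markers Mog, Mag, Mobp, Cldn11 and Opalin, at most 1 of the newly formed cell genes Gpr17, Bmp4, Neu4 and Enpp6, and at most 1 of 9 markers of other lineages. The rule kept 6640 of the 26036 barcodes deposited, of which 24376 passed the 2 quality limits. Among them 5387 cells had at least 1 Il33 UMI (Il33+) and 1253 had none (Il33-). Zero UMIs do not show that a cell lacked the transcript, because droplet sequencing captures only part of its RNA.

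All animals were Ki67TD-NES mice of a mixed C57BL/6J and CD1 background, heterozygous for Ki67-creERT2, Nestin-GFP and a tdTomato reporter, so no group lacked these alleles or the tamoxifen, which was given by gavage at 100 mg/kg on 6 consecutive days. Nestin-GFP marks cells in which the Nestin transgene is active, and creERT2 from the Ki67 locus switches on tdTomato in cells that divide. The 7 experiments comprised 1 on mice of 1 month, 3 on mice of 2 months and 3 on mice of 6–8 months (labelled as 6 months), each with a pool of male and female mice, and 1 of them was sequenced as 2 libraries. The sort was aimed at neural stem cells and their progeny, so the oligodendrocytes are those that entered its gates and no sample of the tissue's oligodendrocytes. The gates took GFP+ cells, except that 1 library, with 39 of the oligodendrocytes, also held cells negative for both colours. All 2-month experiments used Version 2 of the 10x chemistry and the others Version 3, so that age and chemistry cannot be told apart between 2 months and the other ages. The 1-month and 6–8-month experiments share a chemistry, but 15 oligodendrocytes stand for 1 month.

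Oligodendrocytes wrap axons in myelin. They arise from precursors, pass through a committed and newly formed stage marked by genes such as Enpp6, and end as mature cells that keep high levels of myelin genes and of genes such as Ptgds and Apod. Interleukin-33, the product of Il33, is a nuclear cytokine of the interleukin-1 family that signals, once released from a damaged cell, through the receptor ST2 (encoded by Il1rl1) and its partner Il1rap. In the brain it is known from oligodendrocytes and astrocytes.

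The 8 libraries held between 4861883 and 43826338 UMIs and between 15 and 1963 of these oligodendrocytes, whose median depth per library lay between 2295 and 11141 UMIs. In the merged matrix 59 barcode sequences occurred in more than 1 library, and 12 oligodendrocytes shared theirs with an oligodendrocyte of another library. Outside the rule, the myelin proteolipid gene Mal had a UMI in 98.7% of the drawn Il33+ cells and 95.6% of the Il33- cells. Of the rule's own genes, which the selection fixes, Mog was at 2038 ± 250 CPM (counts per 1000000 UMIs) in Il33+ and 2158 ± 274 CPM in Il33- cells (SD, n = 6 experiments), and Mobp at 2340 ± 887 and 2642 ± 760 CPM. Mag (2202 and 2797 CPM) and Cldn11 (3911 and 4078 CPM) also had lower means in Il33+ cells. Opalin went the other way, at 2006 and 1735 CPM, and was higher in Il33+ cells in 5 of 6 pairs. Markers of other cells were present at varying levels. The 10 microglial markers outside the rule summed to 15.6 to 48.6 CPM in Il33+ and 16.8 to 42.4 CPM in Il33- cells, with Fcrls at 0 in both. The 8 endothelial markers summed to 10.1 to 67.2 CPM and 13.9 to 44.9 CPM. Neuronal and neuroblast markers (13 genes) summed to 148 to 307 CPM in Il33+ cells and to 140 to 1259 CPM in Il33- cells. The other lists reached higher in Il33+ cells: 10 astrocyte markers summed to 254 to 1007 CPM against 242 to 431 CPM, 8 mural cell markers to 0 to 556 CPM against 10.3 to 113 CPM, and 7 precursor markers to 46.8 to 388 CPM against 16.6 to 106 CPM. Astrocyte markers counted 1464 UMIs in Il33+ and 1435 in Il33- cells in all. Mural markers counted 315 and 281, and precursor markers 366 and 319. The highest astrocyte and precursor sums came from 1 arm, the 29 Il33+ cells of the third experiment at 6–8 months. The part of cells or free RNA of other types in the results was not tested. A fit without cells carrying neuroblast genes is given below, on cells drawn anew.

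The DNA before the start site of Il33 and of 3 genes of the comparison is shown because the contrast is drawn on Il33 and these genes stand for a rise (Csrp1), a fall (Ank) and a marker that was not called (Apod). Each line is the 250 bases before the RefSeq start on the gene's own strand (GRCm38.p6), 5′ to 3′, from genes whose RefSeq start lies within 2 bases of the GENCODE gene start. Capitals mark the SOX-type letters ACAAAG, searched on both strands.
Il33 (chr19:29924863-29925112, + strand): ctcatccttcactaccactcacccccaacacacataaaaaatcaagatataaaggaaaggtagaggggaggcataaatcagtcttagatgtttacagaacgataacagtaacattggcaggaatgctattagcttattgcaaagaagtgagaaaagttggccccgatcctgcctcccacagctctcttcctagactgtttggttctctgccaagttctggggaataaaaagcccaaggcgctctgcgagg
Csrp1 (chr1:135719813-135720062, + strand): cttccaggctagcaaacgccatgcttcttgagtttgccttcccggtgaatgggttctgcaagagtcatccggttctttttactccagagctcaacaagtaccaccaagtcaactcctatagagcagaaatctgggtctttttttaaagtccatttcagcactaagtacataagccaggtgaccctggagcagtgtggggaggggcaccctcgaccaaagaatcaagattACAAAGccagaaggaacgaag
Ank (chr15:27466427-27466676, + strand): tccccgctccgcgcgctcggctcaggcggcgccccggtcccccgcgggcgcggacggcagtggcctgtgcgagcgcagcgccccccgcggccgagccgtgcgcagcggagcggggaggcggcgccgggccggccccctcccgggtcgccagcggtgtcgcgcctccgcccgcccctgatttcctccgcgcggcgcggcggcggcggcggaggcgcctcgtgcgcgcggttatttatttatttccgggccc
Apod (chr16:31314809-31315058, - strand): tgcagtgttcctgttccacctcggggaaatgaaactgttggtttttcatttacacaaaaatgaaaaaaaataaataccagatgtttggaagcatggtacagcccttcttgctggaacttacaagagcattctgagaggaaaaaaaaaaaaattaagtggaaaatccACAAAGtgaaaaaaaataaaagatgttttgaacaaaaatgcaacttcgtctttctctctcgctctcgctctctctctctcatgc
ACAAAG occurred in 16.5% of all 32851 windows of this length. Of 15 genes looked up (Il33, the 11 called genes, Apod, Anln and S100b), 13 had windows, 20 in all because some genes have several starts, and 5 of the 20 held it, 1 each of Gstp1, Mif, Sept4, Csrp1 and Apod. The letters CTGGCAC, a core of sites of the myelin regulator MYRF, occurred in 4.19% of all windows and in none of these genes' windows. The Ank window was 81.2% G and C, against 45.2% for Il33, 48.0% for Csrp1 and 36.4% for Apod. Il33 itself spans chromosome 19, 29925114 to 29960718, in GENCODE M21, and RefSeq gives it another start inside that span.

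Most oligodendrocytes had at least 1 Il33 UMI, and the share differed between experiments. It was 53.3% (exact binomial 95% interval 26.6 to 78.7) of 15 cells at 1 month. At 2 months it was 61.2% of 618 cells, 62.7% of 1963 and 69.5% of 331. At 6–8 months it was 93.4% of 1651, 96.1% of 877 and 97.6% of 1185. The 3 shares at 6–8 months all lay above the 3 at 2 months, with means of 95.7% ± 2.11 and 64.4% ± 4.44 (SD, n = 3 each). These shares are a description without a test, since detection of Il33 is the rule.

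Deeper cells show a gene more often, so every cell with enough RNA was thinned at random to 1500 UMIs, which left out 207 of the 6640 cells, 197 of them in the second experiment at 2 months. The share was then 39.5% (35.6 to 43.5), 52.5% (50.1 to 54.8) and 57.4% (51.9 to 62.8) in the experiments at 2 months. In those at 6–8 months it was 68.7% (66.4 to 70.9), 72.6% (69.6 to 75.6) and 78.9% (76.5 to 81.2). The 2 sets did not overlap, with means of 49.8% ± 9.26 and 73.4% ± 5.16. At 1 month 2 of 14 cells (14.3%, 1.78 to 42.8) had Il33 after thinning. All intervals cover counting error only. Over all oligodendrocytes Il33 stood at 450, 692 and 775 CPM at 2 months and at 930, 976 and 1068 CPM at 6–8 months, also without overlap, and at 207 CPM at 1 month. Other genes lay apart too. In the Il33+ cells drawn for the comparison below, Mal was at 2299 to 3612 CPM at 2 months and 5222 to 7184 CPM at 6–8 months. Pllp, another myelin gene, was at 2102 to 2445 and 845 to 1339 CPM. The share of all genes without overlap was not counted.

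**Figure D1:**
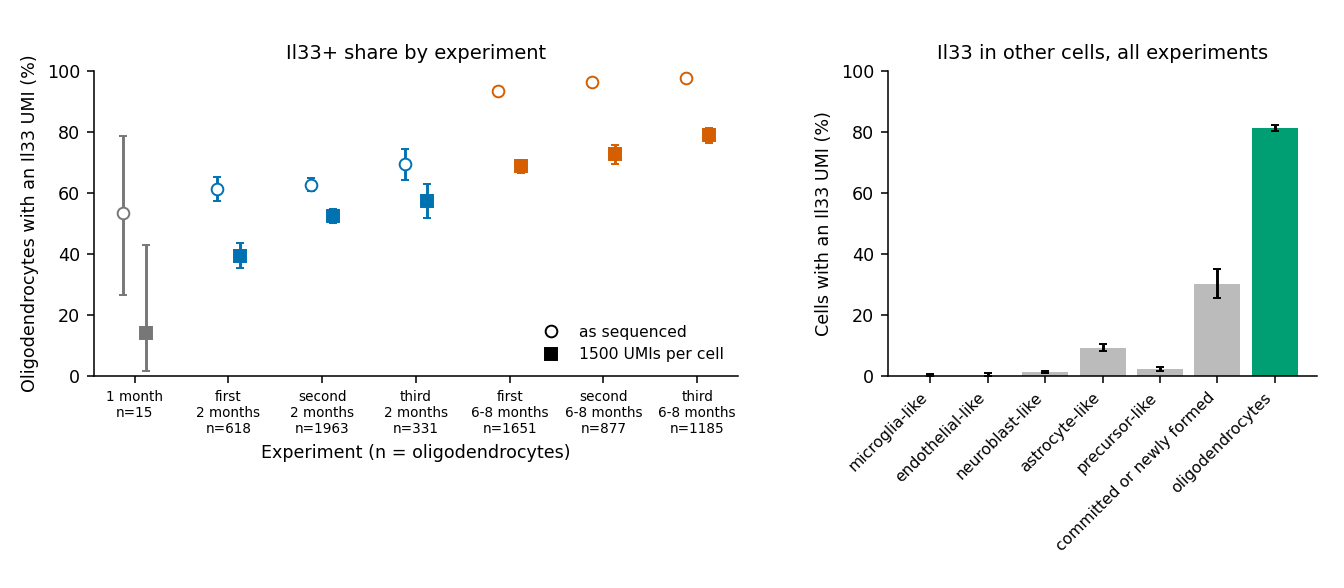
Left, the percentage of oligodendrocytes with an Il33 UMI in each of the 7 experiments, as sequenced (open circles) and with each cell thinned to 1500 UMIs (filled squares), with exact binomial 95% intervals. Right, the percentage in other cell classes over all experiments. After thinning the 3 experiments at 2 months lie between 39.5% and 57.4% and the 3 at 6–8 months between 68.7% and 78.9%.

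The same measure in cells that should lack Il33 describes the background of free RNA. Each class needed at least 3 of its own markers and, except for the committed class, at most 1 of Mog, Mag, Mobp, Cldn11 and Opalin. Cells with more oligodendrocyte RNA were thus left out, so these shares may lie below the full background. Of 690 microglia-like cells 1 had an Il33 UMI (0.145%, median depth 2902 UMIs), as did 1 of 494 endothelial-like cells (0.202%, 2235 UMIs) and 47 of 3385 neuroblast-like cells (1.39%, 5899 UMIs). The background was uneven: of the microglia-like cells 647 came from the first experiment at 2 months, and neuroblast-like cells were at 4.19% (26 of 621) in the second experiment at 2 months and at 0 to 1.75% in the others. Precursor-like cells were at 2.39% of 2130 and astrocyte-like cells at 9.35% of 2288. The committed or newly formed class took cells outside the rule with at least 3 of Gpr17, Bmp4, Neu4, Enpp6, Bcas1 and Tcf7l2. It had no limit on mature or other-lineage markers, so it may hold mature or mixed cells. These cells were at 30.2% of 368 with a median depth of 13288 UMIs, and at 14.9% after thinning, against 62.9% of the oligodendrocytes of the rule. By experiment, and as sequenced, their share ran from 2.94% of 34 cells at 1 month to 72.7% of 11 cells in the first experiment at 6–8 months, and 180 of the 368 came from the third experiment at 6–8 months, so the pooled shares also carry the mix of experiments. The oligodendrocytes themselves had a median depth of 4543 UMIs.

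At the threshold of the rule, 857 cells carried exactly 1 Il33 UMI at a median depth of 3068 UMIs, beside the 1253 without any at 2848 UMIs and 4530 with 2 or more at 5143 UMIs. Il33+ cells had a median of 4 Il33 UMIs and a maximum of 32. Of the lineage threshold, 75 cells with 3 of the 5 oligodendrocyte markers lay just inside and 198 cells with 2 just outside, and 34.7% and 5.05% of them had Il33.

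To bring the depths of the arms closer, equal numbers of Il33+ and Il33- cells were drawn within each of 10 depth bins of a library, and their UMIs were summed per experiment and arm. Both arms of an experiment come from the same mice, so the experiment was a block in the fit. The 1-month experiment had only 7 and 8 cells and was left out. In the 6 others, each arm held 29 to 733 cells, with median depths of 2258 to 5857 UMIs in Il33- and 2236 to 6062 UMIs in Il33+ cells. Matching was within bins, so totals could still differ: the 34 cells per arm of the second experiment at 6–8 months held 215991 UMIs in Il33- and 168996 in Il33+ cells. The test took genes detected in 20% or more of either arm's cells, without the 19 genes of the rule.

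Few genes distinguished the arms. Of 2212 genes tested with edgeR's quasi-likelihood method, 11 passed an adjusted p of 0.05 (0.497%), 7 higher in Il33+ cells (0.316%) and 4 lower (0.181%), with 214 at an unadjusted p under 0.05. The median log2 fold change over all tested genes was -0.004. The genes that rose were Gstp1, Car2, Mif, Sept4, Csrp1, Ptgds and the intact tdTomato reporter locus, and those that fell were Selenop, Ank, Marcksl1 and Hmgn2. Only Gstp1 also passed in the fit on all cells without matching, and so met the naming rule for called genes. Ptgds and the reporter locus were named beforehand. Selenop, Car2 and Sept4 entered as the members of their lists with the smallest p. Ank, Marcksl1, Mif, Csrp1 and Hmgn2 were named after their values were seen.

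Gstp1 encodes a glutathione S-transferase, an enzyme that joins glutathione to reactive compounds. In the 3 experiments at 2 months it was at 1268, 2517 and 2996 CPM in Il33+ cells and at 895, 1733 and 1886 CPM in Il33- cells. In the 3 experiments at 6–8 months it was at 530, 858 and 302 CPM against 417, 648 and 200 CPM. Il33+ cells were higher in 6 of 6 pairs, although the ranges of the arms overlap, since the experiments lie further apart than the arms. The log2 fold change was 0.52 ± 0.06 (SE), a 1.44-fold difference (adjusted p = 2.0e-05), and the gene kept its call with each experiment left out. Gstp2, a near-identical neighbour, was at 14.02 and 6.55 CPM, and reads of the pair may have been split between them.

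Car2, carbonic anhydrase 2, an enzyme of mature oligodendrocytes, ran from 4272 over a median of 6223 to 7620 CPM in Il33+ and from 3047 over 5256 to 6609 CPM in Il33- cells. It was higher in 6 of 6 pairs, by 0.30 ± 0.05 on the log2 scale (adjusted p = 0.013), and kept its call in 5 of the 6 fits with 1 experiment left out. Ptgds encodes the enzyme that makes prostaglandin D2. It ran from 20252 over 25788 to 35831 CPM in Il33+ and from 12677 over 20881 to 33146 CPM in Il33- cells, again higher in 6 of 6 pairs (log2 fold change 0.38 ± 0.08, adjusted p = 0.026). With 1 experiment left out Ptgds passed in 2 of 6 fits, at log2 fold changes between 0.30 and 0.43.

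Sept4 encodes a septin, a filament protein of myelin. Its levels were 3380, 3689 and 4195 CPM (lowest, median, highest) in Il33+ cells and 2811, 2978 and 3860 CPM in Il33- cells (0.26 ± 0.05, adjusted p = 0.021). Mif, a cytokine and tautomerase, was at 423, 637 and 872 CPM against 347, 498 and 662 CPM (0.31 ± 0.06, adjusted p = 0.021). Csrp1, a LIM-domain protein of the actin cytoskeleton, was at 2520, 3510 and 3915 CPM against 2221, 2939 and 3228 CPM (0.25 ± 0.05, adjusted p = 0.021). These 3 genes were higher in 6 of 6 pairs and each passed in 2 of the 6 fits with 1 experiment left out.

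The reporter elements are read from the same libraries. The intact tdTomato locus, which still holds its stop sequence, was at 720, 1092 and 1414 CPM in Il33+ and 704, 857 and 990 CPM in Il33- cells, higher in 5 of 6 pairs (0.28 ± 0.06, adjusted p = 0.049). The green reporter eGFP was at 175 ± 38.0 and 143 ± 38.8 CPM (0.16 ± 0.10, adjusted p = 0.69). WPRE, an element of the recombined locus, was below the detection limit of the test, at 20.1 ± 9.39 and 41.3 ± 33.4 CPM. So was the other element of that locus, bGHpolyA, at 4.76 ± 4.69 and 9.27 ± 8.51 CPM. WPRE had 83 and 150 UMIs in all, and bGHpolyA 27 and 28.

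Of the genes that fell, Selenop, a secreted selenium carrier, was at 349, 607 and 1046 CPM in Il33+ and 282, 772 and 1571 CPM in Il33- cells and was lower in 5 of 6 pairs (-0.46 ± 0.08, adjusted p = 0.0073). Ank, a transporter of pyrophosphate, was at 113, 164 and 211 CPM against 141, 217 and 319 CPM and was lower in 6 of 6 (-0.48 ± 0.09, adjusted p = 0.020). Each passed in 3 of the 6 fits with 1 experiment left out, with adjusted p up to 0.13 for Selenop and 0.11 for Ank. With Il33 status taken after thinning Ank was at -0.12 (adjusted p = 0.30) and Selenop at -0.32 (adjusted p = 2.8e-07). Both kept their call when cells with 2 or more of 6 neuroblast genes were left out, as did Gstp1 and Car2. That setting, which also drew its cells anew, was chosen after the values had been seen.

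Marcksl1, a membrane and actin-binding protein of immature neural cells, was at 66.7, 158 and 321 CPM in Il33+ and 88.5, 327 and 480 CPM in Il33- cells and was lower in 6 of 6 pairs (-0.58 ± 0.12, adjusted p = 0.021). Hmgn2, a nucleosome-binding protein, was at 302, 362 and 515 CPM against 264, 496 and 789 CPM and was lower in 5 of 6 (-0.46 ± 0.10, adjusted p = 0.049). Each was called in few of the 6 fits with 1 experiment left out, 3 for Marcksl1 and 1 for Hmgn2. Neuroblast genes were uneven between the arms in some experiments. Of the matched cells in the second experiment at 2 months, 57 of 733 Il33- cells and 28 of 733 Il33+ cells carried 2 or more of Dcx, Stmn2, Sox11, Igfbpl1, Tubb3 and Neurod1. The numbers were 1 and 2 cells in the first and 3 and 3 in the third experiment at 2 months, 0 and 0 in the first and second at 6–8 months, and 2 and 0 in the third experiment. In the first and second experiments at 6–8 months Marcksl1 was at 67 and 77 CPM in Il33+ cells. It was at 88 and 185 CPM in Il33- cells, on 37 and 13 UMIs against 48 and 40. Whether neuroblast RNA played a part there was not tested. With cells carrying 2 or more of the 6 neuroblast genes left out of every experiment, Marcksl1 stood at -0.43 (adjusted p = 0.18) and Hmgn2 at -0.13 (adjusted p = 0.67). Another 5 genes lost their calls in that fit while keeping their direction: Ptgds at 0.30 (adjusted p = 0.058), the intact reporter locus at 0.27 (0.14), Mif at 0.22 (0.22), Sept4 at 0.19 (0.13) and Csrp1 at 0.14 (0.32). That fit also drew its cells anew. A second draw with no cells left out likewise kept 4 of the 11 calls and lost 7. Calls lost or kept in the fit without neuroblast genes therefore cannot be assigned to the cells left out.

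**Figure D2:**
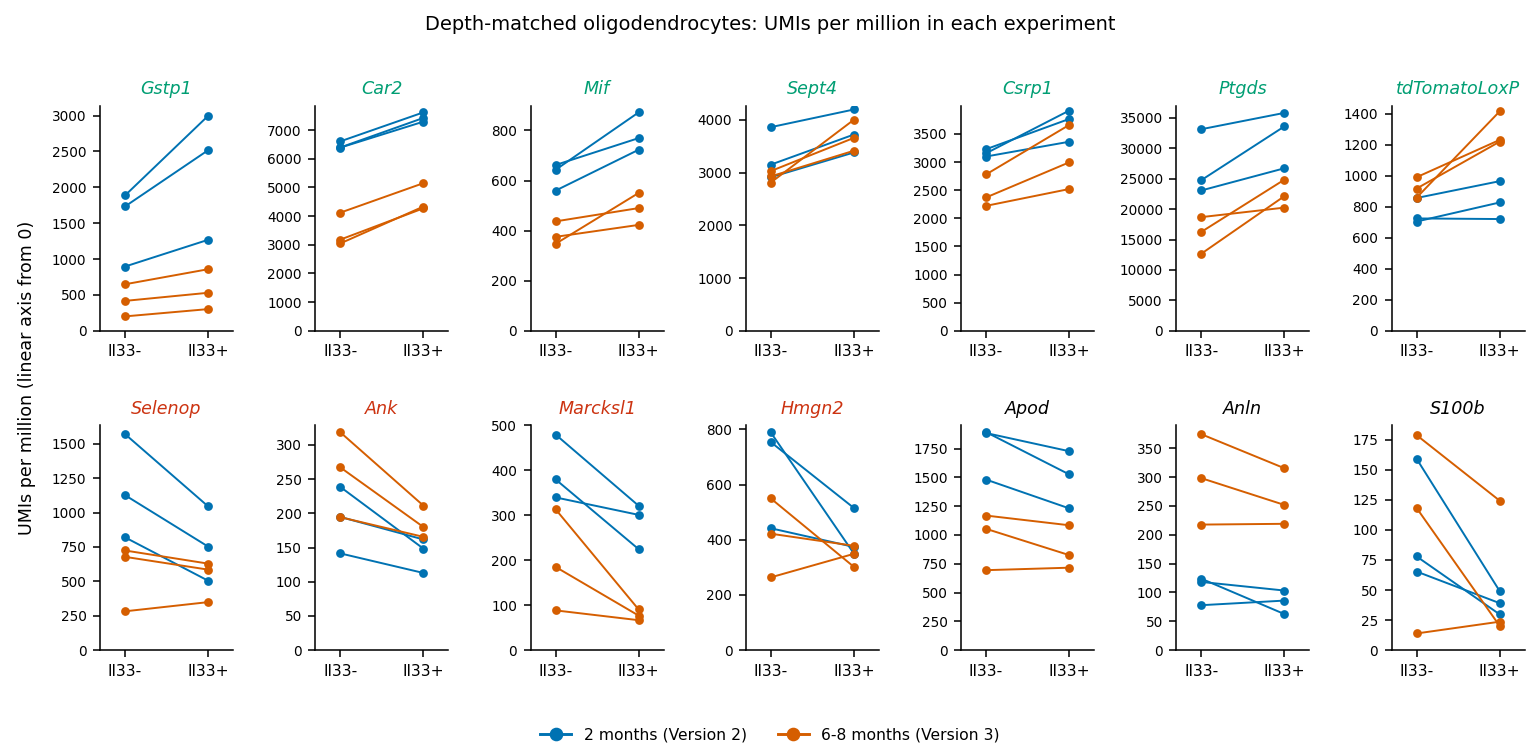
CPM in Il33- and Il33+ oligodendrocytes drawn from the same depth bins, 1 line per experiment, for the 7 genes higher in Il33+ cells (green titles), the 4 lower (red titles), and Apod, Anln and S100b (black titles). Each axis starts at 0. The Gstp1 and Car2 lines rise in 6 of 6 experiments, and those of Ank and Marcksl1 fall in 6 of 6.

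Apod and Anln, which had been named with Ptgds as markers of the Il33+ cells, were not higher in them. Apod, a secreted lipocalin that binds lipids, was at 716, 1158 and 1727 CPM in Il33+ and 694, 1325 and 1893 CPM in Il33- cells, lower in 5 of 6 pairs, and did not pass the test (-0.20 ± 0.05, adjusted p = 0.13). Anln, which encodes anillin, an actin- and septin-binding scaffold, was at 62.5, 161 and 315 CPM against 77.9, 171 and 374 CPM, lower in 4 of 6 pairs (-0.31 ± 0.11, adjusted p = 0.30). In the fit whose cells took their Il33 status after thinning, 53 of 3194 genes passed (1.66%), and both passed as lower in Il33+ cells (Anln -0.19, adjusted p = 0.044; Apod -0.14, adjusted p = 0.0013). Of the 4 markers, then, Ptgds alone was called higher in the matched fit, and Il33 defines the arms. With edgeR, Ptgds also passed with Il33 status taken after thinning (0.17, adjusted p = 8.6e-05). It did not pass in all cells (0.35, adjusted p = 0.11) or with at least 2 Il33 UMIs for Il33+ (0.36, adjusted p = 0.069).

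S100b, a calcium-binding protein of oligodendrocytes and astrocytes and a member of the end-stage list of genes, was under the 20% detection limit and is given here because its values stood out. It was at 39.1, 49.1 and 29.7 CPM in Il33+ and 65.4, 159 and 77.9 CPM in Il33- cells at 2 months. At 6–8 months it was at 124, 23.7 and 20.1 CPM against 179, 13.9 and 118 CPM, where the pair that runs the other way rests on 4 and 3 UMIs. Il33+ cells were lower in 5 of 6 experiments. With genes admitted at 10% detection over both arms, 16 of 3844 genes passed (0.416%) and S100b was lower by a log2 fold change of -1.17 ± 0.17 (adjusted p = 3.7e-04). In the fits on all cells and without the cells carrying neuroblast genes its values were -1.44 and -1.42. There it entered the test only through the arm where it is high, so those fits are no support.

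Levels were then followed along the number of Il33 UMIs in cells thinned to 1500 UMIs, as a description without a test. S100b was at 78.6 ± 32.8 CPM in cells with 0 Il33 UMIs, 40.4 ± 11.6 with 1, 32.96 ± 6.82 with 2 and 19.2 ± 11.1 with 3 or more (SD, n = 6 experiments), and the last was below the first in 6 of 6 experiments (5 of 6 at 3000 UMIs). Selenop was at 793 ± 368, 671 ± 247, 590 ± 255 and 520 ± 223 CPM, below in 6 of 6. In the first experiment at 6–8 months its ends were nearly level, at 545, 546, 459 and 542 CPM. Ank was at 207 ± 50.4, 180 ± 57.4, 186 ± 54.4 and 184 ± 48.6 CPM, nearly level from 1 UMI on. Gstp1 was at 1138 ± 761, 1364 ± 1087, 1408 ± 1043 and 1575 ± 1235 CPM, above in 6 of 6. It did not rise steadily in each: the third experiment at 6–8 months had 357, 329, 308 and 359 CPM. Car2 ran from 5645 ± 1326 to 6348 ± 1454 CPM, above in 5 of 6, and Ptgds from 24475 ± 5019 to 28543 ± 7626 CPM, above in 6 of 6. Apod ran from 1346 ± 390 to 1160 ± 358 CPM and Anln from 209 ± 112 to 171 ± 109 CPM, and both were below in 6 of 6 experiments. In cells thinned to 3000 UMIs Apod was again below in 6 of 6, while Anln was at 202, 199.5, 204 and 188 CPM and above in 2 of 6.

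**Figure D3:**
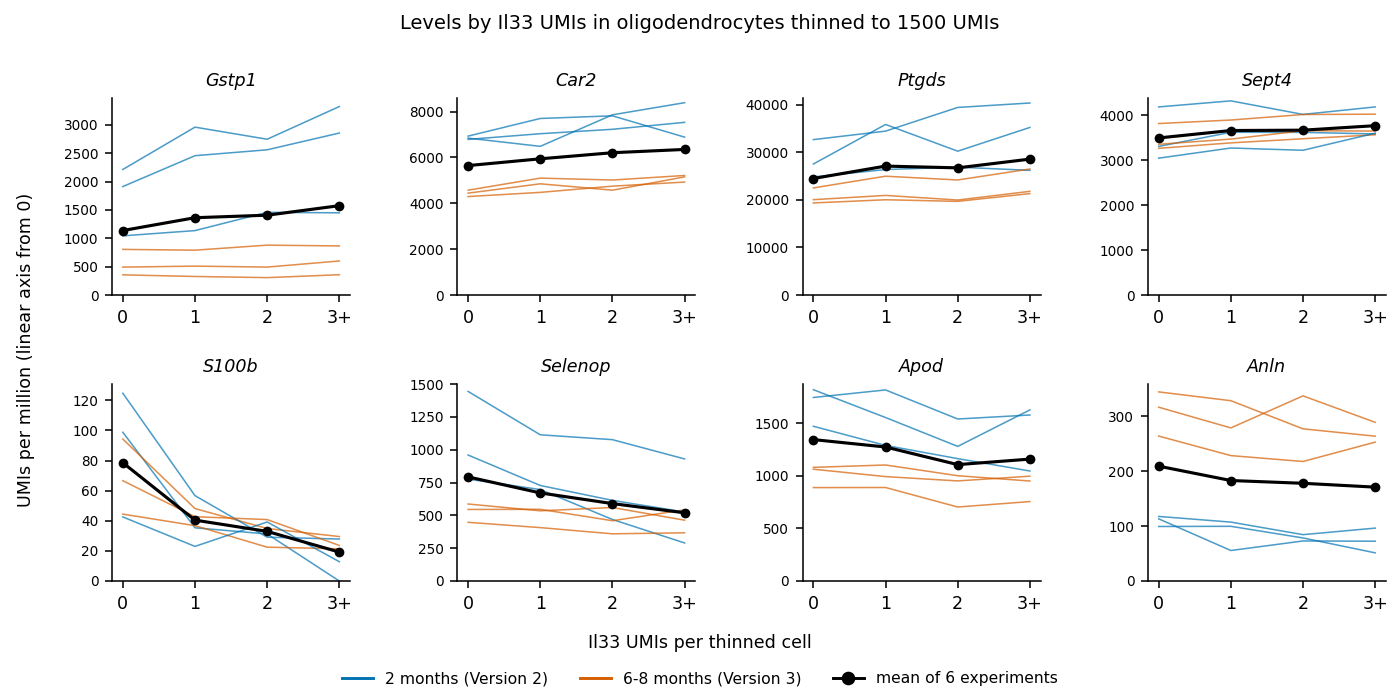
CPM of 8 genes in oligodendrocytes thinned to 1500 UMIs and grouped by 0, 1, 2 and 3 or more Il33 UMIs, with thin lines for the 6 experiments and black points for their mean. Each axis starts at 0. Mean S100b falls from 78.6 to 19.2 CPM and mean Gstp1 rises from 1138 to 1575 CPM.

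The stage of maturation was described by 2 lists of genes. The lists were written with earlier results of these data known, so counts of called members are a description only. Of 24 genes of end-stage oligodendrocytes, 17 were tested and 3 called, Ptgds and Car2 higher and Selenop lower. Over all genes tested 11 of 2212 were called (0.497%). The median log2 fold change of the list was 0.03 beside -0.004 for all genes. Of the members that were not tested, S100b, Klk6, a secreted protease, and Anxa5 (49.1 against 55.1 CPM) had lower mean CPM in Il33+ cells. Hopx (77.3 against 26.3 CPM, higher in 2 of 6 pairs) and Grm3 (57.1 against 47.6 CPM, higher in 3 of 6) had higher means. The Hopx mean rests on 1 experiment at 352 CPM in Il33+ cells, and its medians were 24.1 and 15.1 CPM. All 24 genes, the called Ptgds included, summed to 83742 ± 7940 CPM in Il33+ and 74147 ± 14011 CPM in Il33- cells. Of these sums the called Ptgds made 27235 and 21437 CPM, Car2 6017 and 4958 CPM and Selenop 645 and 867 CPM. Of the 17 tested members 7 had a negative log2 fold change, so the sums do not describe the list as a whole. Apoe, a lipid carrier (0.40 ± 0.10, adjusted p = 0.059, higher in 6 of 6 pairs), and Qdpr, which regenerates tetrahydrobiopterin (0.22 ± 0.05, adjusted p = 0.059), stood just outside. Apoe differed most in the third experiment at 6–8 months, at 5994 against 2482 CPM. The Il33+ arm of that experiment also had the highest astrocyte marker sum. With 1 experiment left out Apoe moved between 0.25 and 0.47. Of 21 genes of newly formed and early myelinating cells 4 were tested, with none called by edgeR, and Nfasc, a neurofascin of the paranode and node, had the lowest value (-0.50 ± 0.16, adjusted p = 0.25). It rests on the second and the third experiment at 6–8 months, at 290 and 317 CPM in Il33+ against 1023 and 658 CPM in Il33- cells, and moved between -0.66 and -0.25 with 1 experiment left out. The 17 of these genes outside the rule summed to 734 ± 226 CPM in Il33+ and 1039 ± 618 CPM in Il33- cells. Of the rule's own genes of this stage, which are given without a test and support nothing, Enpp6 was at 30.05 and 64.2 CPM, Gpr17 at 2.47 and 20.5 CPM, Bmp4 at 1.84 and 1.72 CPM and Neu4 at 4.55 and 1.49 CPM in Il33+ and Il33- cells.

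Myelin genes were close to balance. Of 27 listed, 22 were tested, 0 were called by edgeR, 11 had a positive and 11 a negative log2 fold change, and their median was -0.005. They ran from Gal3st1, the enzyme that makes sulfatide (-0.27 ± 0.10, adjusted p = 0.35), to the tetraspanin Cd9 (0.27 ± 0.07, adjusted p = 0.13). Of the 12 genes for anillin, septins and their partners 8 were tested, with Sept4 called and Sept7 at 0.05 ± 0.05. Of 14 genes of cholesterol and fatty acid synthesis tested, none was called and 10 had a negative value (median -0.08), Scd1, a desaturase, being lowest (-0.23 ± 0.14, adjusted p = 0.68). Of 14 lipocalin and prostaglandin genes 5 were tested and Ptgds was called. The called share over all genes tested was 0.497%, and these lists too were written with earlier results known.

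The 10 oligodendrocyte transcription factors tested, which included Myrf (-0.14 ± 0.09, adjusted p = 0.69) and Nkx6-2 (0.08 ± 0.05, adjusted p = 0.69), had a median of 0.02 and no call. The 12 mitochondrially encoded genes had a median of 0.01, and the 81 cytosolic ribosomal protein genes, a list added after the files were read, a median of -0.05 with 66 of 81 values below 0 and no call. Over all genes tested the called share was 0.497% and the median -0.004. The share of all genes below 0 was not counted, so the 66 of 81 is a description only. Of the list for iron handling 4 genes were tested with no call, Hepacam, a cell adhesion protein that the list holds, being highest (0.29 ± 0.08, adjusted p = 0.17). Of 21 immediate early and dissociation genes 2 were tested, Jund (0.05 ± 0.05) and Jun (-0.04 ± 0.10).

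The partners of interleukin-33 were mostly below the detection limit. Of 12 genes for its receptor and signalling, Il1rap alone was tested, at 108 ± 35.2 CPM in Il33+ and 121 ± 21.8 CPM in Il33- cells (-0.03 ± 0.12, adjusted p = 0.99). Of 20 antigen presentation and interferon genes 1 was tested, Ifi27 (-0.02 ± 0.12, adjusted p = 0.998).

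**Figure D4:**
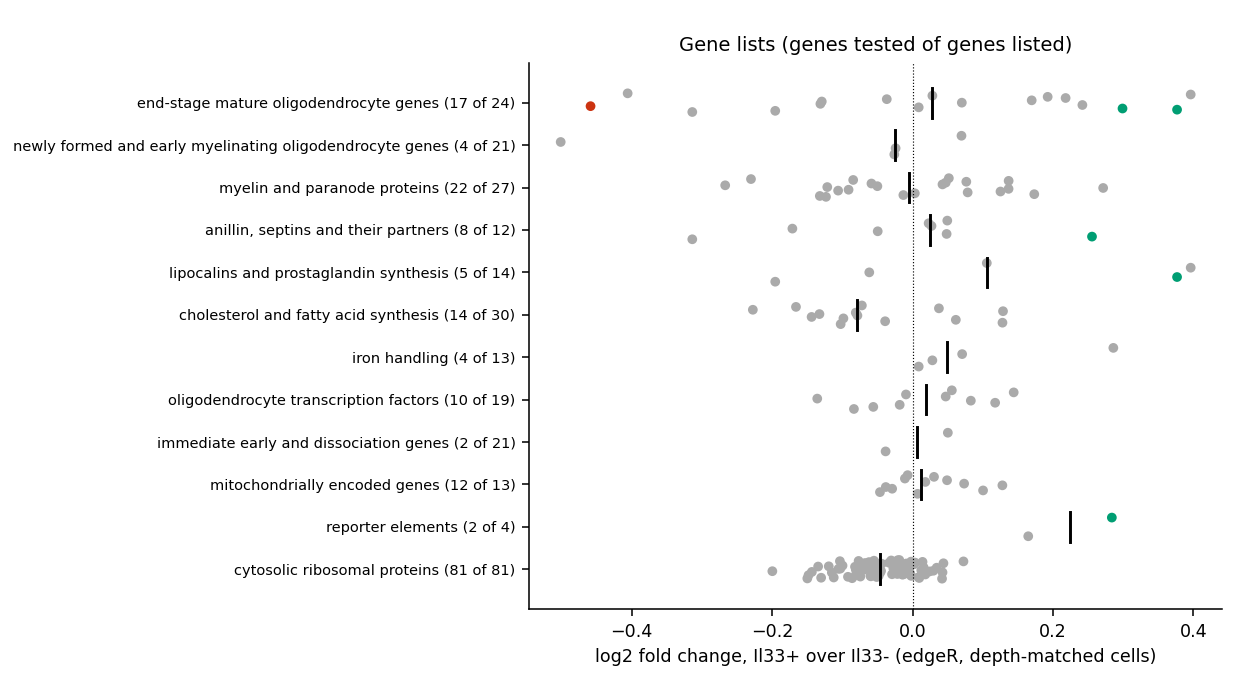
Log2 fold change of each tested gene of a list (points), Il33+ over Il33- oligodendrocytes, from edgeR on cells drawn from the same depth bins, with the list's median as a black bar. Green points passed as higher, red as lower and grey points did not pass. The 22 myelin genes lie between -0.27 and 0.27 with none called.

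The contrast was also set against chemistry. With an interaction of Il33 status and chemistry version in the same 6 experiments, 0 of 2212 genes passed with edgeR and 135 had an unadjusted p under 0.05. Fitted separately, Selenop was at -0.61 (adjusted p = 3.3e-08) with Version 2 and -0.11 (adjusted p = 0.97) with Version 3, a difference that did not pass the interaction test. Gstp1 was at 0.57 (adjusted p = 2.9e-08) and 0.40 (adjusted p = 0.20), so that it was not called with Version 3 alone. Car2 was at 0.21 (adjusted p = 0.0032) and 0.40 (0.0035), and Marcksl1 at -0.45 (0.0038) and -1.09 (4.7e-04).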

How the data were processed

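Single-cell RNA sequencing of the dentate gyrus was analysed in 8 libraries from 7 experiments. The authors trimmed reads with cutadapt 1.18, aligned them to mm10 extended by the reporter sequences (Cell Ranger 3.0.2), and merged the libraries without depth normalization. The deposited values are whole-number UMI counts, 1 per feature and barcode, over 31058 features. The suffix of a barcode names its library, and 0 columns were left unmapped. Members, gene lists and tests were chosen with earlier results of these data known.

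Here, UMIs were summed per experiment and Il33 status over equal numbers of cells drawn from the same depth bins (10 per library, at least 10 cells per arm), and tested with edgeR 4.0.16 (quasi-likelihood, TMM, library size the total UMIs, experiment as a block, Benjamini-Hochberg adjusted p under 0.05) in R 4.3.3. Pairing comes from the design: both arms of an experiment are cells of the same mice. Library size and CPM use all UMIs of the drawn cells. DESeq2 1.42.0 and limma 3.58.1 (voom) were alternatives. Shares and thinning were computed in Python with numpy and scipy. The fit was also run on simulated counts. The changes set there were larger than any called here, so that run does not cover differences of the called size. The genes named were to be Il33, Anln, Apod and Ptgds, up to 12 called in each direction in both the matched and the unmatched fit with the same sign in every experiment, up to 4 per list by p, and reporter elements. No doublet caller was run; the limit of 1 marker of other lineages bounds mixed cells. Mice were pooled per experiment, so p-values do not measure the spread between mice. With experiment as a block they measure how far the difference between the arms varies from experiment to experiment, counting error included.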

Additional observations from a re-analysis of the deposited data

Results flagged for a closer look

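Over 51 sets of values (the named genes and the share at fixed depth), 3 genes had 1 experiment whose log2 ratio of Il33+ to Il33- cells lay apart from the other 5 by Dixon's criterion, which chance meets in about 1 of 20 groups, so that 3 of 51 is about what chance gives. Anln was at -0.97 in the first experiment at 2 months, where 64 and 125 UMIs were counted, against a median of -0.22 over the 6. Il1rap was at -1.58 in the second experiment at 6–8 months (8 and 31 UMIs), against a median of 0.05. Apoe was at 1.27 in the third experiment at 6–8 months (1191 and 483 UMIs), against a median of 0.33.

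For 2 genes every experiment at 2 months had one sign and every experiment at 6–8 months the other, a difference that passed no test of its own in the interaction fit. The share of all genes split this way was not counted, so the 2 may be no more than chance gives. Fth1, ferritin heavy chain, had mean log2 ratios of -0.12 at 2 months and 0.18 at 6–8 months. Slc1a3, an astrocyte glutamate transporter, had -0.48 and 0.70, and the latter ages rest on 12 to 54 UMIs per arm.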

How the results depend on the processing

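Against 7 genes higher and 4 lower of 2212 tested, the counts were 1 and 1 of 3194 in all cells. They were 33 and 20 of 3194 with Il33 status taken after thinning, and 20 and 13 of 1114 with thinned counts. A second draw of cells gave 2 and 3 of 2206. On the 2212 genes DESeq2 gave 9 and 1 and limma-voom 10 and 5. The filter on pooled detection gave 9 and 7 of 3844, and no filter 20 and 81 of 15989. Counts over unlike numbers of genes cannot be compared directly. Without the replicate block edgeR called 0 and 0 genes, with 25 at an unadjusted p under 0.05 against 214 with it. With at least 2 Il33 UMIs for Il33+ the counts were 22 and 5 of 2263, and without cells carrying neuroblast genes 2 and 3 of 2178. Without the library of GFP+tdTomato+ and double-negative cells they were 4 and 2 of 2208. With Version 3 experiments they were 12 and 18 and with Version 2 experiments 19 and 10, each of 2212. The second draw shared 4 genes with the 11 reported and lost 7. The fits with at least 2 Il33 UMIs, without neuroblast genes, without 1 library and without other-lineage markers also drew their cells anew. With each experiment left out in turn the counts ran from 1 to 15 higher and from 0 to 12 lower: in order, 4 and 4, 2 and 0, 4 and 2 without each experiment at 2 months, and 1 and 0, 15 and 12, 3 and 4 without each at 6–8 months. Gstp1 kept its call in 21 of 23 alternatives and Car2 in 20. The other called genes lost theirs more often: Selenop and Marcksl1 in 7, and Ank, Ptgds and Sept4 in 10. Mif, Csrp1 and the intact reporter locus lost theirs in 12, and Hmgn2 in 13. Hmgn2 turned to 0.024 (adjusted p = 0.99) without cells carrying any other-lineage marker. The mean share of Il33+ cells over 6 experiments was 61.6% at 1500 UMIs, 50.4% at 1000, 74.32% at 3000 and 80.06% without thinning. The causes were not tested. The arms of 29 and 34 Il33- cells limit the values at 6–8 months.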

Other observations

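In the first experiment at 2 months, which was sequenced as 2 libraries, 14 of 39 oligodendrocytes of the library of GFP+tdTomato+ and double-negative cells had Il33 (35.9%, exact binomial 95% interval 21.2 to 52.8) and 364 of 579 of the GFP+tdTomato- library (62.9%, 58.8 to 66.8).

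Klk6, of the end-stage list, was at 0 to 6.84 CPM in Il33+ and 0 to 35.8 CPM in Il33- cells, on 19 and 90 UMIs in all, and was higher in Il33+ cells in 0 of 6 experiments. Nnat was at 45.9 ± 41.9 and 91.4 ± 95.1 CPM. Tmsb10, an actin-binding peptide of immature neurons, was at -0.83 ± 0.19 (edgeR, adjusted p = 0.059). It was at -0.05 (adjusted p = 0.96) in the fit without cells carrying neuroblast genes, which drew its cells anew. These genes were picked after their values were seen.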
